A study of Homo sapiens with 9 samples.

Results

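The neurotrophin receptor genes comprised 7 members out of 19974 protein-coding genes: the Trk receptor kinases NTRK2 and NTRK3, the p75 receptor NGFR, and the sortilin-family receptors SORT1, SORCS1, SORCS2 and SORCS3. They were chosen by name as receptors of this family, with earlier results of these data known, and each was measured over its RefSeq span plus 1 kb on each side. DNA:RNA hybrids were mapped by DRIP-seq, in which the antibody S9.6 pulls down hybrids that are then sequenced, in SH-SY5Y, an established human neuroblastoma line. A lentivirus had stably introduced a short hairpin RNA, either a negative control (shNC) or one that knocks down TDP-43 (shTDP43), a nucleic acid-binding protein whose gene is TARDBP. Cells of both genotypes went through 2 weeks of puromycin selection at 2 µg/mL and stayed on 1 µg/mL afterwards. Before the pull-down, 5 restriction enzymes fragmented the nucleic acids, of which 6 µg was used. Each genotype had 3 untreated libraries and 1 library treated for 6 h with RNase H, an enzyme that digests the RNA strand of a hybrid. The labels do not say whether replicates came from separate transductions, so the p-values measure only the spread between these libraries.

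Neurotrophins are secreted growth factors that keep sympathetic and sensory neurons alive and shape their branches. The mature factors act through Trk receptor kinases, with TrkB (NTRK2) preferring BDNF and neurotrophin-4 and TrkC (NTRK3) preferring neurotrophin-3. The p75 receptor binds all of them, and together with sortilin (SORT1) it binds the uncleaved proneurotrophins, which can promote neuron death. SorCS1, SorCS2 and SorCS3 belong to the same Vps10-domain family as sortilin and work in sorting of membrane proteins, with SorCS2 also acting as a proneurotrophin receptor. Neuroblastoma arises from the sympathetic lineage in which these receptors act.

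The untreated lists held 69453 to 73353 peaks over 125.5 to 142.0 Mb in shNC and 57204 to 70016 peaks over 91.6 to 130.9 Mb in shTDP43. shTDP43 replicate 1 was the shortest list and the shallowest, with a lowest background pileup at peak summits of 1.05 reads against 1.62 to 2.01 in the other 5 untreated libraries. The RNase H lists held 15504 peaks for shNC and 8868 for shTDP43, with pileups of 0.936 and 0.991. Peak lists do not measure RNA, so the knockdown of TDP-43 could not be checked in them. Of the adrenergic neuroblastoma genes, PHOX2A, GATA3, HAND2 and DBH lay under peaks in every untreated library (shNC means of 5.85 to 30.1 kb) and TH in none. This is a statement about peaks and not about expression. In the treated shNC library the covered length equalled 89.3% of the untreated mean for PHOX2A, 52.9% for HAND2, 37.2% for GATA3 and 9.15% for DBH. In shTDP43 these shares were 57.8%, 28.3%, 8.53% and 3.82%. The median over tested genes was 0% in both genotypes. Of the mesenchymal genes, PRRX1 had no untreated peak and YAP1 averaged 0.312 kb in shNC and 0.431 kb in shTDP43. VIM averaged 6.87 and 6.31 kb and FN1 0.869 and 0.148 kb, in both cases with every shTDP43 library below every shNC library before scaling. Without scaling, 14.0% of tested genes had such a separation. The log2 changes scaled to library totals were 0.07 for VIM and −2.38 for FN1, with adjusted p values of 0.813 and 0.488 by limma. The part of these markers in the results below was not tested. A lower covered length can come from fewer cells with a hybrid or from less hybrid per cell, which cannot be told apart in bulk material.

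The promoter sequences are shown because coverage of the start differed between members, from every untreated library to none. For 5 of the 7 members RefSeq promoter windows were at hand (GRCh38.p14), and NGFR and SORCS2 had no entry. The 250 bases upstream of the start in each gene's first listed RefSeq promoter window are given 5′ to 3′ on the gene's strand. For SORCS1 they lie inside the RefSeq span of the gene. Runs of 3 or more G on that strand are in capitals, and GGG is a motif that 96.8% of 15812 coding promoters contain. SORCS1 (chr10:107164707-107164956, minus strand) was under a peak in all 6 untreated libraries, SORT1 (chr1:109397919-109398168, minus strand) in 3, and NTRK3 (chr15:88256740-88256989, minus strand) and SORCS3 (chr10:104641040-104641289, plus strand) in none.
SORCS1: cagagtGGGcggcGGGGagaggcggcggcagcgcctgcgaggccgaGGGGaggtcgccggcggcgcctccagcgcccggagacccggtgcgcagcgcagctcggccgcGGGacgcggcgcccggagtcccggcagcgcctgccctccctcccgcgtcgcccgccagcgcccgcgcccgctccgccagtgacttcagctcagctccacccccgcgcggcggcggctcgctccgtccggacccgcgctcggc
SORT1: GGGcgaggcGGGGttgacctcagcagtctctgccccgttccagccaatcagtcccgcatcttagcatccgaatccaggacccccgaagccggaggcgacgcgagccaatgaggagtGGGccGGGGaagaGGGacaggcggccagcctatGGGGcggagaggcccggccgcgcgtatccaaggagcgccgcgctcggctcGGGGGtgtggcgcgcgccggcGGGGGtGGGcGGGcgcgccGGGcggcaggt
NTRK3: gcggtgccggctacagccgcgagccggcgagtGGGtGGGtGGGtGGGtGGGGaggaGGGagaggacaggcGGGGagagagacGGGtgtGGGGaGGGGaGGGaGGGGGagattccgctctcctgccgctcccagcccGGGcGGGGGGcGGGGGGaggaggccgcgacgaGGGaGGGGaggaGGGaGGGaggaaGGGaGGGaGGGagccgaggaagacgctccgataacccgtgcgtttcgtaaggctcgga
SORCS3: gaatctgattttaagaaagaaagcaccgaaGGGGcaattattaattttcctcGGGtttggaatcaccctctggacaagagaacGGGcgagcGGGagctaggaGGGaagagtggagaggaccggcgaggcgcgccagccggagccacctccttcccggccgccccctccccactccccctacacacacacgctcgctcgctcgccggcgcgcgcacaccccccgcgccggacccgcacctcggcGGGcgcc
The SORCS1 stretch was the richest of these in G and C, at 82.4% (percentile 98.3 of all coding promoters, whose median was 62.4%), but it held 4 runs of G against 12 runs of C. The NTRK3 stretch was the reverse case. It had 22 runs of G (percentile 99.7, median 6) and a GC skew, the excess of G over C divided by their sum, of 0.48 (percentile 99.6). No untreated library had a peak there, and a link between these features and coverage was not tested. SORT1 lay between them with 74.0% GC, a skew of 0.16 and 11 runs of G. SORCS3 had 66.0% GC, a skew of −0.10 and 6 runs of G. NTRK2 has 4 RefSeq start windows, with 48.4% to 75.2% GC, and none was covered in any library. For scale, 38.0% of coding promoter windows touched a peak in all 6 untreated libraries and 42.7% touched none.

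Hybrid coverage of the 7 members ranged from none to 42.9 kb in 1 library. SORCS1, SORCS2 and NGFR were covered in every untreated library by more than 3 kb, SORT1 and NTRK3 by shorter lengths, NTRK2 in 1 library, and SORCS3 in none. The first 5 therefore passed the filter of a 500 bp mean and were compared between genotypes. SORCS1 lost coverage in shTDP43, and no member gained. That is 1 of 5, where limma with Benjamini-Hochberg adjustment over all tested genes called 0.921% of 12810 genes in either direction, 0.749% as less covered and 0.172% as more covered. The log2 changes of the 5 members were positive for 2 and negative for 3, with a median of −0.13 against 0.05 over all tested genes.

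**Figure D1:**
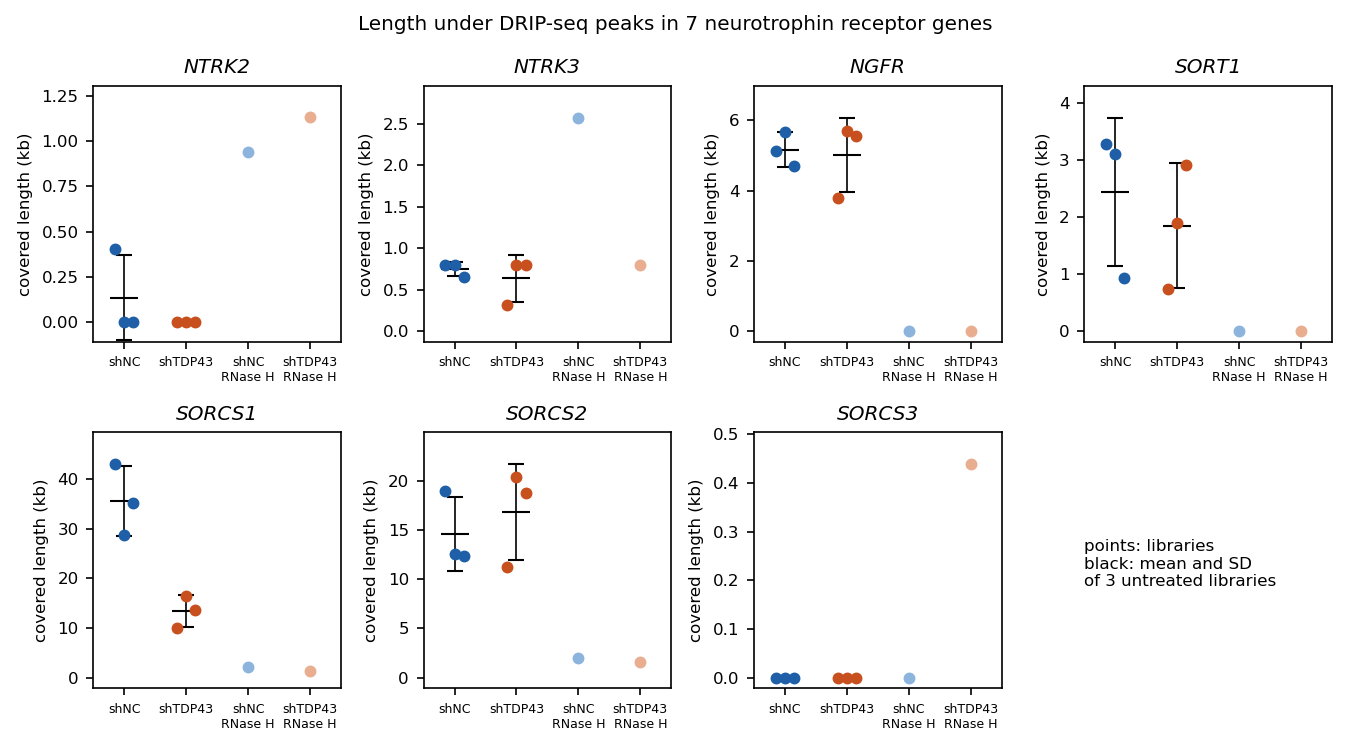
Length of each gene window (kb, vertical axis, its own scale for each gene) under peaks in each of the 8 libraries (points), for the 7 receptor genes. Horizontal lines and bars are the mean and SD of 3 untreated libraries. The 3 shNC points of SORCS1 lie at 28.7 to 42.9 kb and the 3 shTDP43 points at 10.05 to 16.5 kb, while the groups overlap for the other members with coverage.

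SORCS1 (gene ID 114815, chr10:106573663-107181138, minus strand, 607 kb), a sorting receptor of neurons, was the member with the most hybrid coverage. In shNC it lay under 42.9, 28.7 and 35.1 kb of peaks in replicates 1, 2 and 3. In shTDP43 the lengths were 10.05, 16.5 and 13.65 kb. Every shTDP43 library was lower than every shNC library, also after scaling to library totals (13.5 to 16.6 kb against 28.6 to 39.0 kb). Such a separation with less coverage in shTDP43 was found for 14.0% of tested genes without scaling. The means were 35.6 kb ± 7.09 (SD, n = 3) in shNC and 13.4 kb ± 3.23 (SD, n = 3) in shTDP43. The scaled change was −1.22 ± 0.13 on the log2(value + 100 bp) scale (SE), with an adjusted p of 0.00774 by limma, the 27th smallest p of 12810 genes. The number of peaks moved with the length, at 41, 32 and 40 in shNC against 16, 22 and 19 in shTDP43.

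The call on SORCS1 was lost when some single control libraries were left out, while the size of the change stayed similar. Without shNC replicate 1 the change was −1.12 with an adjusted p of 0.0530, and without shNC replicate 3 it was −1.18 with an adjusted p of 0.0661, both by limma. Calls fell over all tested genes too: 12, 24 and 20 genes were less covered without shNC replicate 1, 2 and 3, against 96 with all libraries. For SORCS1 the other settings were as follows. Without shTDP43 replicate 1, the shallow library, it was −1.19 with an adjusted p of 0.0214. Without scaling, the change was −1.41 with an adjusted p of 0.292.

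Along SORCS1 the start of the gene was covered in both genotypes, and over peaks of all strengths most of the difference lay downstream. Distances were counted from 107164706, the start of the RefSeq promoter window used here. The RefSeq span of the gene reaches further upstream, to 107181138, and that upstream stretch held no peak in any untreated library beyond 1 kb from the start. The strongest SORCS1 peak stood there in all 6 untreated libraries, in the top 1.24% to 2.59% of its list by −log10 q in shNC and the top 2.97% to 5.03% in shTDP43. All 300 bases of the promoter window were under that peak in each of these libraries, and its upstream edge at 107165629 was the same base in all 6.

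The covered length was then read by distance from the start. From 1 kb upstream to 10 kb downstream, the covered length was 7.475, 4.581 and 6.754 kb in shNC and 3.243, 4.426 and 4.386 kb in shTDP43. From 10 to 100 kb it was 12.0, 7.61 and 11.3 kb against 3.72, 5.86 and 5.81 kb. From 100 to 300 kb it was 11.3, 6.21 and 8.41 kb against 0.701, 2.332 and 0.679 kb, and beyond 300 kb it was 12.1, 10.3 and 8.63 kb against 2.39, 3.87 and 2.77 kb. Without scaling, every shTDP43 library was below every shNC library in each stretch, but from 1 kb upstream to 10 kb downstream scaling to library totals made the genotypes meet, at 4.57 kb in shTDP43 replicate 1 and 4.56 kb in shNC replicate 2. In this order the shTDP43 mean was 64.1%, 49.8%, 14.3% and 29.1% of the shNC mean. How often stretches of other genes separate in this way was not counted.

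A denser block of peaks lay within 25 kb of the start, a boundary chosen after the peaks were seen. Up to it, shNC averaged 15.6 kb ± 3.35 and shTDP43 9.04 kb ± 1.81 (SD, n = 3 each), 58.0% of the shNC mean, with 8 and 8.33 peaks per library. In the rest of the window the means were 20.0 kb ± 4.14 and 4.36 kb ± 1.64 (SD, n = 3 each), 21.8% of the shNC mean, with 29.7 and 10.7 peaks. The 2 stretches were not tested against each other.

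**Figure D2:**
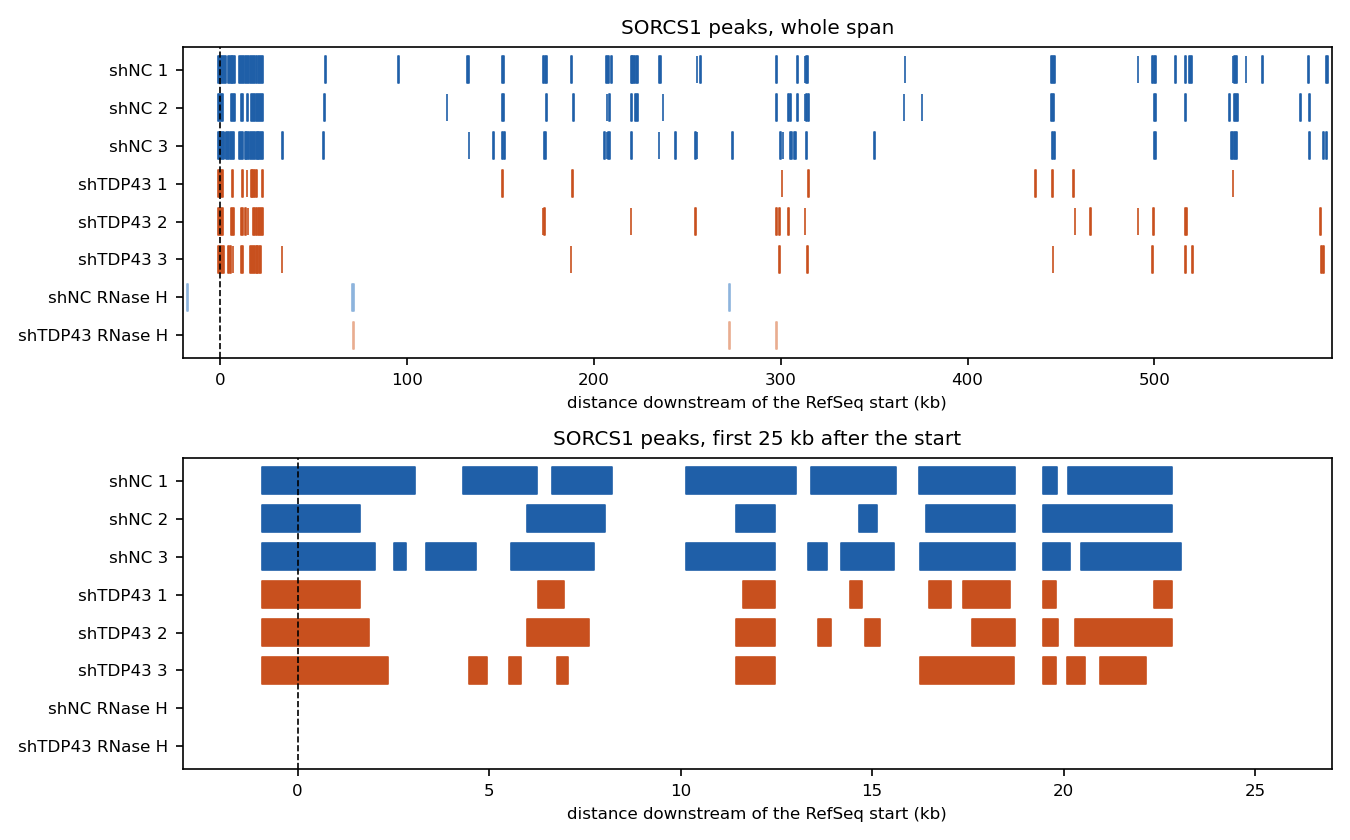
Peaks over SORCS1 in each of the 8 libraries (rows), by distance downstream of the RefSeq start (kb), for the whole span (top) and the first 25 kb (bottom). Each bar is 1 peak, drawn with a thin outline so that short peaks can be seen. The block at the start is present in all 6 untreated rows and absent from both RNase H rows, and the scattered downstream peaks are fewer in the 3 shTDP43 rows.

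Most downstream peaks of SORCS1 were weak. In the rest of the window, 22 of 33, 20 of 26 and 26 of 30 peaks in shNC had a −log10 q under 5, as did 8 of 8, 14 of 14 and 8 of 10 in shTDP43. shTDP43 replicate 1, with the fewest peaks here, was also the shallowest library, and the part of depth in this pattern was not tested. Over the whole window, peaks with a −log10 q of at least 5 covered 28.2, 17.2 and 17.5 kb in shNC and 3.74, 9.48 and 7.30 kb in shTDP43. These unscaled lengths did not overlap between genotypes, but the share of tested genes with such a separation at this threshold was not counted. The change of −1.43 had an adjusted p of 0.101 by limma. At a −log10 q of at least 10 the lengths were 9.94, 5.61 and 7.88 kb against 2.56, 2.80 and 3.29 kb. The change was then −1.14 with an adjusted p of 0.252 by limma. All untreated peaks this strong lay within 25 kb of the start, so at this threshold none of the difference lay further downstream. In shTDP43 only the strongest peak, at the start, passed it.

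The peaks of the 6 untreated libraries merged into 67 regions over SORCS1. Without scaling, the shNC mean was higher in 56 of them and the shTDP43 mean in 11. Many were not shared: 31 occurred in 1 library only, 34 in no shTDP43 library and 8 in no shNC library. These splits were not counted over all regions, and shTDP43 replicate 1 was the shortest list. Of the 67 regions, 5 (7.46%) were in all 6 libraries, against 26.3% of 83149 regions in tested genes. Another 4 were in all 3 shNC libraries and no shTDP43 library, at 106581678 to 106582345, 106619845 to 106621946, 106663731 to 106664870 and 106955854 to 106958152, and none showed the reverse pattern. Over all regions in tested genes, 1.18% of 83149 had that shNC-only pattern and 0.254% the reverse. By bases, 15161 bp of SORCS1 were under peaks in all 3 shNC libraries and 4902 bp in all 3 shTDP43 libraries, and all of those 4902 bp were also covered in the 3 shNC libraries. The third of these lies within LOC105378473, a non-coding gene inside the SORCS1 span, which had 2.291, 0.952 and 1.14 kb under peaks in shNC and 0, 0.751 and 0.339 kb in shTDP43.

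After RNase H no peak was left at the SORCS1 start or in the block behind it. The treated libraries had 2.212 kb under peaks in shNC, a length equal to 6.22% of the untreated mean, and 1.305 kb in shTDP43, 9.74%. This length lay mostly at other positions, since 0 of 3 treated shNC peaks and 1 of 3 treated shTDP43 peaks overlapped an untreated peak. In shNC 1 of the 3 (107181766 to 107182505) lay upstream of the start at the far edge of the window, and the others lay more than 25 kb downstream of the start, as did all 3 in shTDP43. Those at 107093080 began at the same base in both treated lists, and another pair overlapped and ended at the same base, 106892507. With 1 treated library per genotype there is no replicate check.

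SORCS2 (gene ID 57537, chr4:7192538-7742827, 550 kb), the SorCS receptor that pairs with p75 to bind proneurotrophins, was covered by 18.98, 12.564 and 12.316 kb in shNC and 11.253, 20.369 and 18.765 kb in shTDP43. The groups overlapped: shTDP43 replicate 1 was the lowest of all 6, and shTDP43 replicate 3 lay just under shNC replicate 1. The scaled change was 0.38 ± 0.15 (log2, SE), with a p of 0.0386 and an adjusted p of 0.394 by limma, and did not pass. The sign is opposite to that of SORCS1. Nearly all of it sat in the last 40 kb at the higher-coordinate end, which held 18.98, 11.464 and 12.316 kb in shNC and 11.253, 19.93 and 18.765 kb in shTDP43. The rest of the gene was covered in 2 untreated libraries only, by 1.1 kb in shNC replicate 2 and 0.439 kb in shTDP43 replicate 2.

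At that end, 2 regions of SORCS2 were present in all 6 untreated libraries. The longer one, chr4:7713254-7724403, averaged 7184 bp in shNC and 9121 bp in shTDP43. The one at chr4:7737425-7742892 was nearly constant, averaging 4754 and 4765 bp. After RNase H the last 40 kb held nothing in either genotype. The treated libraries had peaks in the rest of the gene, covering 2.03 kb in shNC and 1.545 kb in shTDP43. The treated shNC peak at chr4:7448089-7448416 overlapped peaks of 2 untreated libraries. The remaining treated peaks overlapped none, with 1 peak at chr4:7575863-7577061 given identical edges in both lists and absent from every untreated list. PSAPL1, a coding gene inside the SORCS2 span, was uncovered in all 8 libraries.

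NGFR (gene ID 4804, chr17:49495293-49515008, 19.7 kb), the p75 receptor, was the member most densely covered, with 23.4% of its window under untreated peaks, close to the median of 22.3% over tested genes. The lengths were 5.123, 5.674 and 4.687 kb in shNC and 3.798, 5.694 and 5.547 kb in shTDP43. The groups overlapped, with shTDP43 replicate 1 the lowest. The means were 5.16 kb ± 0.495 and 5.01 kb ± 1.05 (SD, n = 3 each), and the scaled change of 0.13 ± 0.14 (log2, SE) had an adjusted p of 0.657 by limma. Without scaling its sign turned, to −0.06.

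One region of NGFR, chr17:49494500-49498086 at the lower-coordinate end, began and ended at the same base in all 6 untreated libraries. It was 3587 bp long and continuous except in shTDP43 replicate 1, where peaks covered 3278 bp of it. For comparison, 8.96% to 11.5% of all peak starts in an untreated library were shared to the base by all 6. A second region, chr17:49513932-49516135, was present in all 6 with varying edges and lies also within NGFR-AS1, a non-coding gene that overlaps NGFR from 49505657. The region chr17:49512425-49513142 appeared only in shTDP43 replicates 2 and 3. RNase H left no peak in NGFR in either genotype, which also held for 64.1% of tested genes with untreated coverage in shNC and 77.0% in shTDP43.

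**Figure D3:**
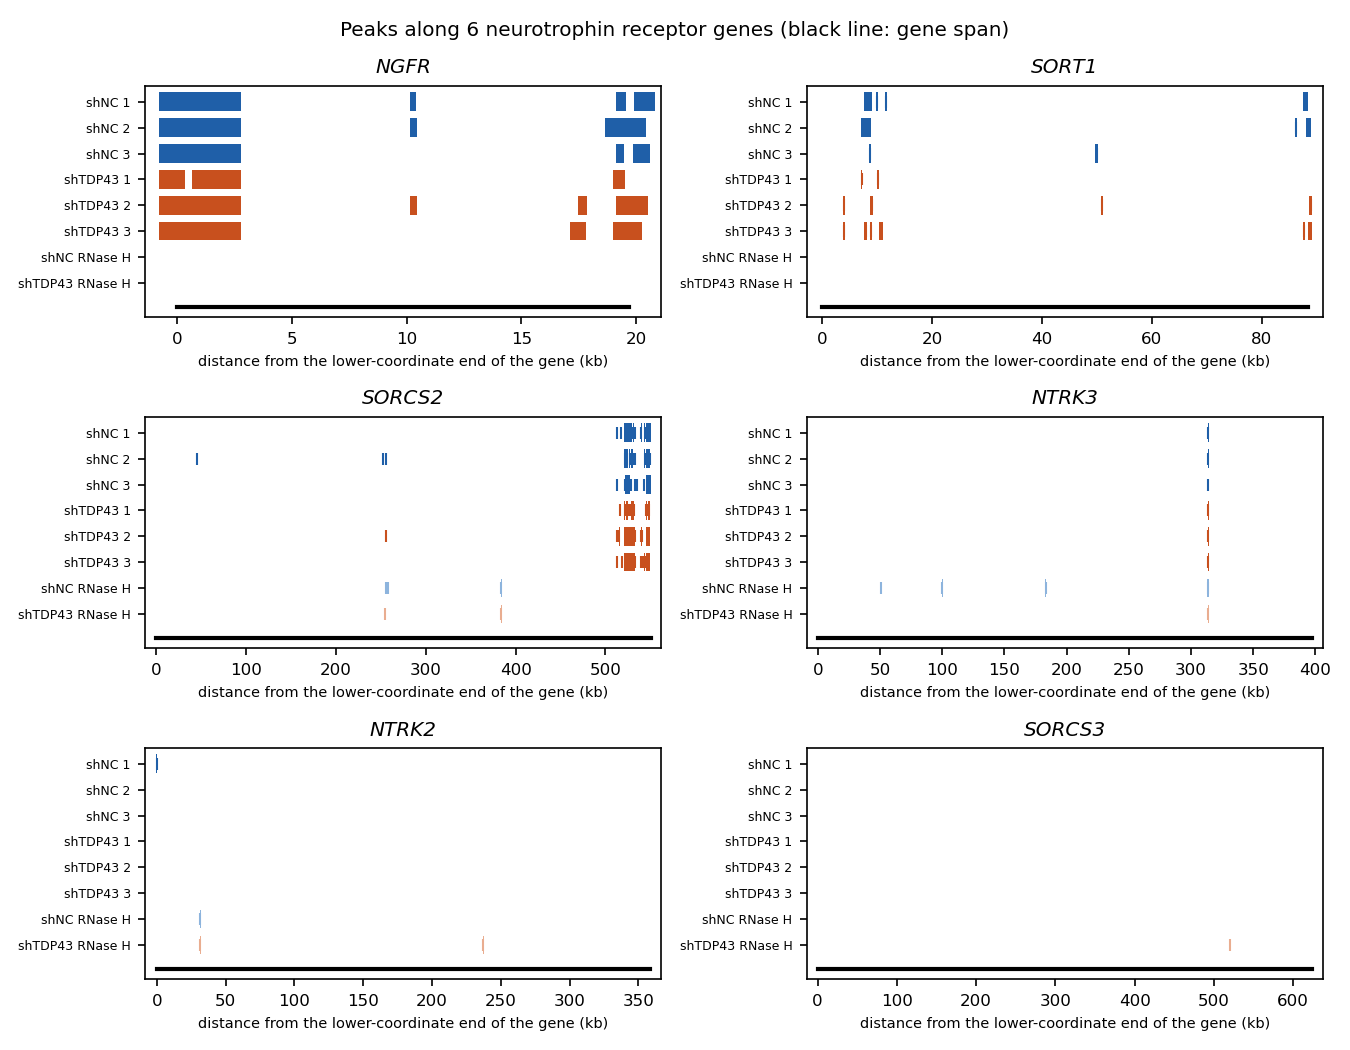
Peaks over the other receptor genes in each of the 8 libraries (rows), by distance from the lower-coordinate end of the gene (kb). Bars are peaks to scale, and a short tick marks each centre so that narrow peaks can be seen. SORCS2 peaks gather in the last 40 kb, NGFR peaks at both ends, and NTRK3 has a single untreated position.

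SORT1 (gene ID 6272, chr1:109309575-109397918, 88.3 kb, minus strand), which encodes sortilin, had low and uneven coverage. It was 3.278, 3.103 and 0.939 kb in shNC and 0.737, 1.905 and 2.923 kb in shTDP43, so each genotype had high and low libraries. The means were 2.44 kb ± 1.30 and 1.86 kb ± 1.09 (SD, n = 3 each), and the scaled change of −0.20 ± 0.51 (log2, SE) had an adjusted p of 0.849 by limma. The sign turned when shNC replicate 1, shNC replicate 2 or shTDP43 replicate 1 was left out, with values of 0.04, 0.07 and 0.16. Of its 9 regions, 1 was in all 6 libraries (chr1:109316612-109318919, toward the far end of the gene from its start). The region around the start, chr1:109397084-109398722, was in 2 libraries of each genotype. The promoter window itself was touched in shNC replicates 1 and 2 and shTDP43 replicate 3. The peak of shTDP43 replicate 2 lay upstream of it. No SORT1 peak remained after RNase H, as for most tested genes.

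NTRK3 (gene ID 4916, chr15:87859751-88256739, 397 kb, minus strand), the neurotrophin-3 receptor TrkC, had a single untreated region, chr15:88173029-88173824, of 796 bp. It covered 0.796, 0.796 and 0.656 kb in shNC and 0.314, 0.796 and 0.796 kb in shTDP43, with the same first and last base in most libraries. The scaled change of −0.13 ± 0.53 (log2, SE) had an adjusted p of 0.907 by limma, and it was 0.11 without shTDP43 replicate 1. The same region was also called after RNase H, from 88172587 to 88173824 in shNC and with its usual edges in shTDP43. With 3 further peaks in the treated shNC library, the treated length over NTRK3 equalled 343% of its untreated mean in shNC and 125% in shTDP43. Values of 100% or more were found for 1.44% of tested genes in shNC and 1.46% in shTDP43, and the median over tested genes was 0% in both.

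NTRK2 (gene ID 4915, chr9:84668522-85027054, 359 kb, plus strand), the BDNF receptor TrkB, had 1 untreated peak of 406 bp, in shNC replicate 1, at its lower-coordinate edge. After RNase H it was covered by 0.942 kb in shNC and 1.134 kb in shTDP43, including a peak that began at 84699650 in both treated lists. SORCS3 (gene ID 22986, chr10:104641290-105265242, 624 kb, plus strand), a receptor found mainly in brain, had no untreated peak and a single peak of 438 bp in the treated shTDP43 library. Neither was compared between genotypes, and a signal too weak to be called would not appear in these lists.

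Among the treated lists, peaks in the receptor genes were mostly ones without an untreated counterpart. That held for 9 of 11 treated shNC peaks (81.8%) and 7 of 9 treated shTDP43 peaks (77.8%), where the whole lists had 44.5% and 44.6%. All treated peaks of the members lay in genes of 350 kb or more with little untreated coverage to overlap, and the share over such genes was not counted. Some sites were called in both treated lists and enter both counts. These counts have no test, since there was 1 treated library per genotype.

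The sparse coverage of NTRK2, NTRK3 and SORCS3 is common among genes of their length. Of 617 coding genes of 350 kb or more, 125 (20.3%) had no untreated peak, and 90 of these had a peak after RNase H, as SORCS3 did. The median long gene had 0.226% of its window covered. SORCS1, at 4.02%, ranked 56th of the 617, and SORCS2, at 2.84%, 73rd. NTRK3 ranked 328th and NTRK2 451st, while SORCS3 tied with the genes at 0. Of 388 long genes tested, 16 were called as less covered in shTDP43 and 3 as more covered, with a median log2 change of −0.20, against −1.22 for SORCS1.

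The wider pathway was covered by 4 lists with 51 genes reported here, of which 41 were tested. By limma, 0 of these were called in either direction and 7 had an unadjusted p under 0.05, as did 1474 of all 12810 tested genes. The log2 changes were positive for 25 and negative for 16, with a median of 0.07. In the list of Trk adaptors and kinases, 20 of 21 genes were tested and their median was 0.06. The smallest p values there belonged to PIK3R1, a regulatory subunit of PI3-kinase, and FRS2, a docking protein of Trk and fibroblast growth factor receptors. PIK3R1 was covered by 7.448, 5.819 and 4.624 kb in shNC and 1.52, 4.895 and 3.573 kb in shTDP43, with −0.76 ± 0.29 (log2, SE) and an adjusted p of 0.365. FRS2 was covered by 7.786, 5.717 and 7.849 kb in shNC and 2.886, 4.949 and 5.869 kb in shTDP43, with −0.48 ± 0.19 and an adjusted p of 0.367. For both genes the genotypes overlapped and shTDP43 replicate 1 was the lowest library.

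The ligands, p75 partners and sorting genes were likewise without a call. Of 4 ligands 2 were tested. BDNF had 1.763, 2.5 and 1.763 kb in shNC and 0, 1.763 and 1.397 kb in shTDP43, with −1.64 ± 1.03 and an adjusted p of 0.607 by limma. NTF4, which encodes neurotrophin-4, had 1.702, 0.788 and 0.699 kb in shNC and no peak in shTDP43, with an adjusted p of 0.325. Of 13 p75 partners and effectors 11 were tested, with a median of 0.10. The smallest p values among them were those of MAGED1, a p75-binding adaptor, at −0.40 ± 0.14 (adjusted p = 0.308), and ZNF274 at 0.29 ± 0.11 (adjusted p = 0.349), both by limma. Of 13 genes for proneurotrophin processing and sorting 8 were tested, with a median of 0.15. VPS35, a retromer subunit, had 0.22 ± 0.12, and GGA2, a sortilin-binding trafficking adaptor, 0.19 ± 0.11, each with an adjusted p of 0.557 by limma.

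**Figure D4:**
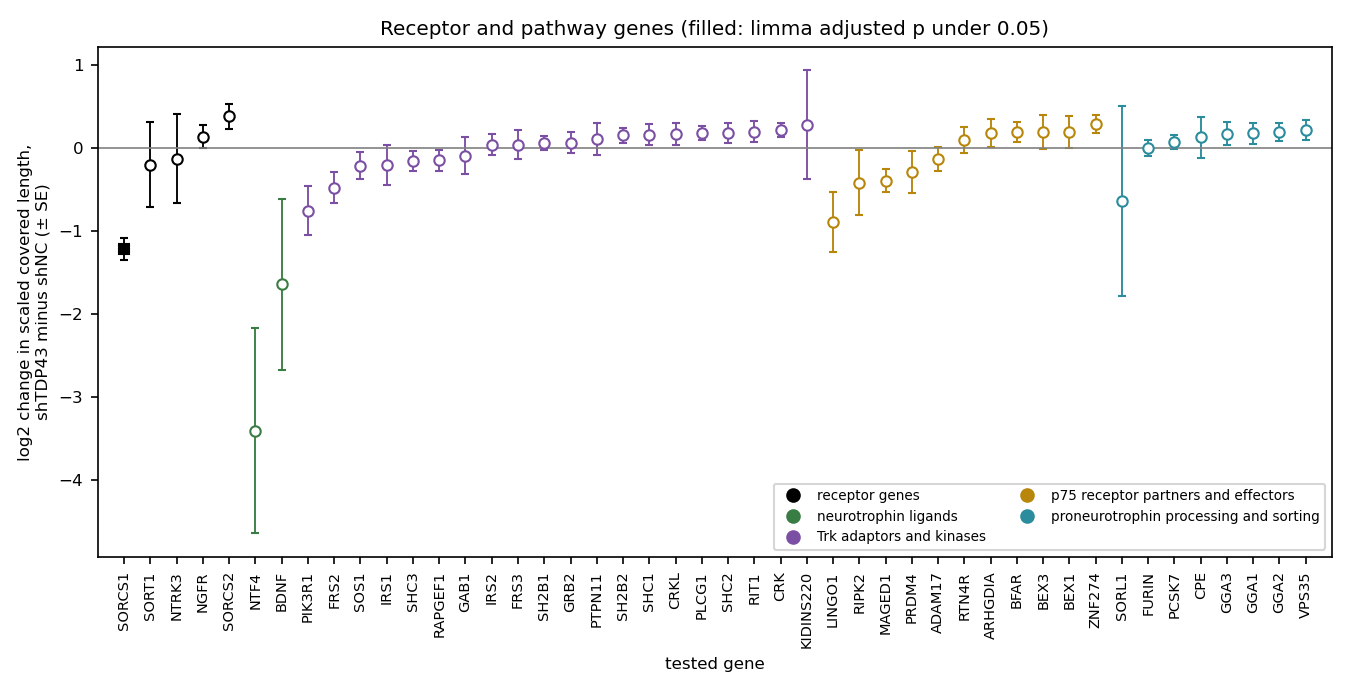
Log2 change in scaled covered length, shTDP43 against shNC (vertical axis, pseudocount 100 bp), with its SE, for the tested receptor genes and the tested genes of the 4 pathway lists. The filled square, SORCS1 at −1.22, is the gene past the threshold. NTF4 has no peak in shTDP43, so its position depends on the pseudocount.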

How the data were processed

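DRIP-seq signal for DNA:RNA hybrids was available as peak lists from 8 SH-SY5Y libraries (3 untreated and 1 RNase H-treated per genotype); the input library was not analysed here. Peaks were called per library. Per the submitters' processing notes, the tools included MACS2 2.2.6, Bowtie2 2.4.4 and SAMtools, with hg38 as the build. Which control entered peak calling is not stated there. Each deposited peak has a score, a ratio (fold enrichment) and −log10 p and q values from the authors' peak caller, which were used only to describe, rank or filter peaks within a list. The deposited lists hold no read counts, so depth was read back from fold and p at 2000 summits per library, of which 100% gave a whole-number pileup within 0.001.

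For each coding gene on chromosomes 1 to 22 and X, the length of its RefSeq GRCh38.p14 span plus 1 kb each side under peaks was scaled to the median library total. Genes averaging 500 bp or more in the untreated libraries were compared in R 4.3.3 with limma 3.58.1 (lmFit and eBayes, trend on) on log2(covered bp + 100), called at a Benjamini-Hochberg adjusted p under 0.05, and the script was tested on simulated data. Lengths in kb are given without scaling, log2 changes with it. Overlapping genes share peaks. Exons were not annotated in the tables used, so peaks were placed by gene span only.

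All 7 members are named. Of the pathway lists, the genes called are named, and otherwise the pair with the smallest p in each list. The lists leave out 1 pathway gene and 2 marker genes, which are not reported here. The members and lists were chosen with earlier results of these data known. The alternatives tried were other scalings, pseudocounts, filters, peak thresholds, windows and variance models, a replicate block, and leaving out each library.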

Additional observations from a re-analysis of the deposited data

How the results depend on the processing

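SORCS1 kept a lower covered length in shTDP43 under all 19 alternatives and its call under 13. The call was lost without scaling (−1.41, adjusted p = 0.292), for peaks with −log10 q from 5 (−1.43, 0.101) or from 10 (−1.14, 0.252), without the variance trend (−1.22, 0.0542) and without shNC replicate 1 or 3. Leaving out 1 library gave −1.35 to −1.12 for SORCS1 (adjusted p 0.0108 to 0.0661), −0.26 to 0.11 for NTRK3, 0.08 to 0.21 for NGFR, −0.72 to 0.16 for SORT1 and 0.29 to 0.53 for SORCS2, all by limma. With −log10 q from 5, NTRK3 was at −2.00 and SORT1 at −1.11 (adjusted p = 0.651 and 0.730). NGFR turned to −0.060 without scaling and to −0.029 without peaks also called after RNase H, NTRK3 to 0.11 without shTDP43 replicate 1, SORT1 to 0.04, 0.07 and 0.16 without shNC replicate 1, shNC replicate 2 and shTDP43 replicate 1, and SORCS2 to −0.91 for −log10 q from 10.

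Over all tested genes, 22 were called with more and 96 with less coverage. These counts were 1 and 19 without scaling, which moved the median of all genes from 0.05 to −0.15, 40 and 191 with a pseudocount of 1000 bp, 3 and 30 for −log10 q from 5, 2 and 30 from 10, 44 and 135 with equal peak numbers, 1070 and 669 without peaks also called after RNase H, and 14 and 61 without the variance trend. Leaving out 1 library gave 6 to 57 and 12 to 166. Of the member regions, 11 were in all 6 libraries, 3 when a library had to cover 50% of the region and 7 for −log10 q from 5, and the shNC-only regions numbered 4, 5 and 2. NTRK3 could not be tested with a 2000 bp filter, for −log10 q from 10 or without peaks also called after RNase H, nor SORT1 for −log10 q from 10. NTRK2 was tested only without the filter (−0.74, adjusted p = 0.701).

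Deviations of same-numbered libraries from their group means correlated at −0.17, 0.06 and −0.17, and those of differently numbered libraries at −0.18 to 0.23. With deviations tied within each group of 3, this cannot settle whether the libraries were paired. With the replicate block, 9 genes had more and 65 less coverage, SORCS1 had an adjusted p of 0.0213, and NTRK3, NGFR, SORT1 and SORCS2 0.946, 0.7996, 0.890 and 0.593 by limma. Peak lists record only what passed the caller, so a gene listed at 0 may hold weaker signal.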

Other observations

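For each tested receptor gene, the 2 tested genes whose scaled log2 covered length followed it most closely over the 6 untreated libraries are given as a description. Pearson's r was taken over 6 libraries that differ in depth, and those differences are common to all genes. For SORCS1 they were PACSIN1, a membrane-trafficking adaptor gene (r = 0.995), and KLHL5 (r = 0.993). KLHL5 was covered by 22.051, 17.579 and 20.553 kb in shNC and 8.037, 12.467 and 10.717 kb in shTDP43, and PACSIN1 by 2.927, 0.613 and 1.448 kb in shNC and 0, 0.055 and 0 kb in shTDP43. Both were picked for following SORCS1 over these libraries, so their own difference between genotypes is a description with no test. For SORCS2 they were IL20RB (r = 0.993) and TIAL1 (r = 0.989), and for SORT1 NALF2 (r = 0.995) and UEVLD (r = 0.986). For NGFR they were ZNF837 (r = 0.985) and OGT (r = 0.983), and for NTRK3, whose single region was short only in shNC replicate 3 and shTDP43 replicate 1, MISP3 and MZF1 (r = 0.998 each).

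Most other genes that overlap the receptor spans were bare. NTRK3-AS1, SORCS3-AS1 and the miRNA genes MIR11181, MIR6165, MIR4798 and MIR4274 had no peak in any of the 8 libraries. NGFR-AS1 had 1.432, 1.856 and 1.1 kb in shNC and 0.52, 1.876 and 1.96 kb in shTDP43, and none after RNase H. LOC105378465, a non-coding gene inside SORCS3, contains the 438 bp peak of the treated shTDP43 library.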
